A study of Mus musculus with 8 samples.

Results

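The genes described here are the 4 inhibitor of DNA binding genes (Id1, Id2, Id3 and Id4), the signal transducer genes Smad1 and Smad5, the inhibitory SMAD genes Smad6 and Smad7, and Bambi and Pmepa1, which encode membrane proteins that restrain signalling by the transforming growth factor beta (TGF-β) family. They were picked by gene symbol, and all 10 were found among the 17276 genes listed. The study compared hepatocytes exposed to shear stress, the drag of a moving fluid on the cell surface, with hepatocytes kept static, with 4 libraries in each group. All cells were of wild-type male C57BL/6N mice aged between 6 and 8 weeks. The labels state neither the strength nor the length of the stress. They do not tell whether replicates are separate cultures or animals, so p-values here reflect only how these libraries vary, and that variation may be technical. Libraries held between 16225843 and 16732203 estimated counts in the shear stress group and between 15067056 and 17935566 in the static group.

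Bone morphogenetic proteins (BMPs) bind pairs of type I and type II receptors, which phosphorylate SMAD1 and SMAD5. These enter the nucleus with SMAD4 and switch on target genes, among which the ID genes are classic examples. TGF-β and activins act in the same way through SMAD2 and SMAD3. ID proteins carry a helix-loop-helix but no DNA-binding region, so they pair with E proteins and keep these off DNA. SMAD6, SMAD7, BAMBI and PMEPA1 are products of the pathway that feed back on it. In the liver, BMP6 from sinusoidal endothelial cells acts on hepatocytes through SMAD1 and SMAD5 to sustain the iron hormone hepcidin, and Id1, Smad6, Smad7 and Atoh8 are known as companions of hepcidin in that response.

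The 250 bases before the transcription start (RefSeq, GRCm38.p6) are given for the called genes that have an entry among the promoter sequences used, so that the gene that fell, Id2, can be read beside genes that rose. Capitals mark 4 motifs on either strand, namely GGCGCC and GGAGCC, both bound by SMAD1 and SMAD5, GTCT, the short SMAD box, and CCAAT, a general promoter element.
Id2 (chr12:25096093-25096342, minus strand): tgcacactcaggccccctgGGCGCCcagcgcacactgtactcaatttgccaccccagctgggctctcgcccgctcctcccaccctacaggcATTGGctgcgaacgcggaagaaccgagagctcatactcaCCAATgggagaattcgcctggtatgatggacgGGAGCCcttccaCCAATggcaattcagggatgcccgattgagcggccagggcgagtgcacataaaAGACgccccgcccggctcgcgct
Id3 (chr4:136143572-136143821, plus strand): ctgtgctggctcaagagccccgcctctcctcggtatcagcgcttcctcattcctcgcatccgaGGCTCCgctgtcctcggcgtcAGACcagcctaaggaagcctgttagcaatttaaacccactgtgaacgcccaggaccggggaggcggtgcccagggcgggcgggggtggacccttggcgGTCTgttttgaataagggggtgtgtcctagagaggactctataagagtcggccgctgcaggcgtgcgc
Smad6 (chr9:64022060-64022309, minus strand): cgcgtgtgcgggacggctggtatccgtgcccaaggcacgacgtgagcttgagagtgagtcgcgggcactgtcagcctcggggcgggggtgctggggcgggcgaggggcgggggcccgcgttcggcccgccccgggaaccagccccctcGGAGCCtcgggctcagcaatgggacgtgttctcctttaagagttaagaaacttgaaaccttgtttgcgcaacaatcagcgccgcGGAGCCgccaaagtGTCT
Smad1 (chr8:79399429-79399678, minus strand): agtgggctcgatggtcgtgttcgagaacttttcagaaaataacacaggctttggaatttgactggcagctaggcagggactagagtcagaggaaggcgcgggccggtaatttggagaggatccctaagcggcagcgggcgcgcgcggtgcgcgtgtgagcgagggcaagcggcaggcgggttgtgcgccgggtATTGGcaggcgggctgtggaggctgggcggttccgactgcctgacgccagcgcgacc

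The Id2 window held 3 CCAAT motifs, 1 GGCGCC, 1 GGAGCC and 1 GTCT. In the Id3 window there were 2 GTCT and 1 GGAGCC and no CCAAT. Smad6 had 2 GGAGCC and 1 GTCT, and its window, drawn from the start in the promoter table, reaches into the outer end of the Smad6 gene as positioned here. Smad1 showed a single CCAAT. No matches overlapped in these windows. GTCT was present in 82.9% of all 32851 promoter windows of this length, CCAAT in 33.8%, GGAGCC in 26% and GGCGCC in 9.59%, so these matches are a description of the letters and not of binding.

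The 10 genes did not move as a block. Under shear stress Id2 fell 5.87-fold, while Id3, Smad1, Smad6 and Pmepa1 rose, by between 1.55-fold for Smad1 and 4.73-fold for Pmepa1. Of the 10, 9 had enough counts to be tested, 4 were called higher, 1 lower and 4 were not called (edgeR quasi-likelihood test, Benjamini-Hochberg adjusted p under 0.05). The 5 called genes are 55.6% of the 9, beside 48.6% of all 11747 tested genes, 24.9% being higher and 23.7% lower, so the share itself is near the background. Groups did not overlap in normalised CPM (read counts scaled for library size and composition) for the same 5 genes, and for 45.3% of all tested genes. The calls above leave out the pairing of same-numbered libraries. With the replicate number as a block, 5 of the 9 were higher and 1 lower, beside 61.1% of all tested genes called. In bulk RNA, fewer cells of a type and less RNA per cell cannot be told apart.

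**Figure D1:**
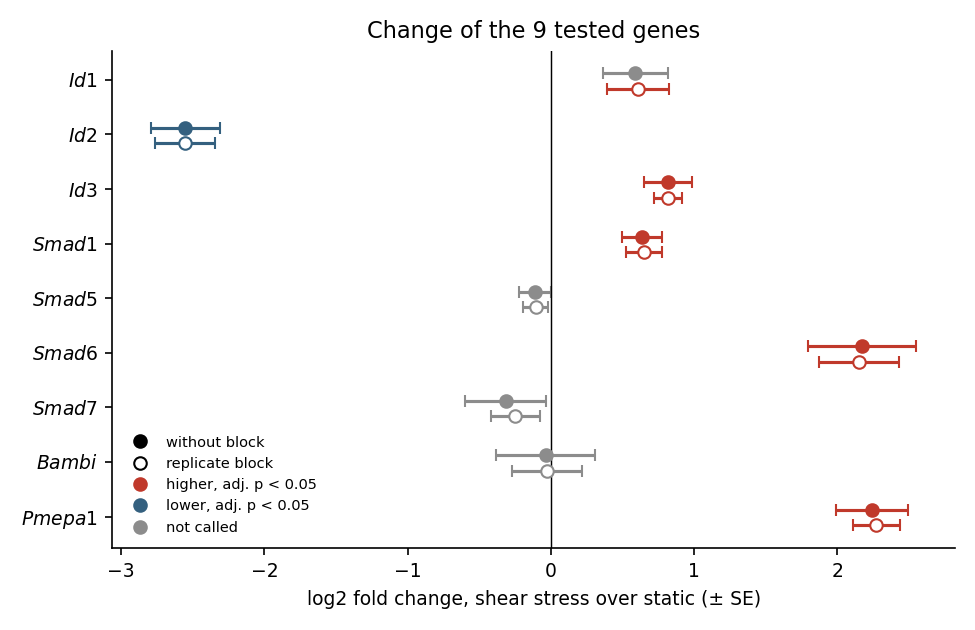
Change of the 9 tested genes on the log2 scale, shear stress over static, with standard errors, without (filled) and with (open) the replicate number as a block, where colour marks adjusted p under 0.05. Id2 sits alone on the left at -2.55, Smad6 and Pmepa1 lie near 2.2, and the Id1 change is called only with the block.

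Levels of different genes are compared in TPM, a unit of transcript abundance within a library that corrects for transcript length. In shear stress libraries the order of mean TPM was Id3 (130), Id1 (66.8), Id2 (59.1), Pmepa1 (23.0), Smad1 (13.5), Smad5 (8.80), Smad7 (7.47), Bambi (1.78), Smad6 (1.45) and Id4 (0.11). In static libraries it was Id2 (298), Id3 (63.0), Id1 (36.6), Smad5 (8.32), Smad7 (8.22), Smad1 (7.41), Pmepa1 (4.17), Bambi (1.56), Smad6 (0.285) and Id4 (0.228). Neighbours in the order whose libraries overlapped were Id1 and Id2, Smad5 and Smad7, and Bambi and Smad6 under shear stress. In static libraries they were Smad5 and Smad7, Smad7 and Smad1, Smad1 and Pmepa1, and Smad6 and Id4. Id2 was thus below Id3 in mean level under shear stress and above all other members in static libraries.

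**Figure D2:**
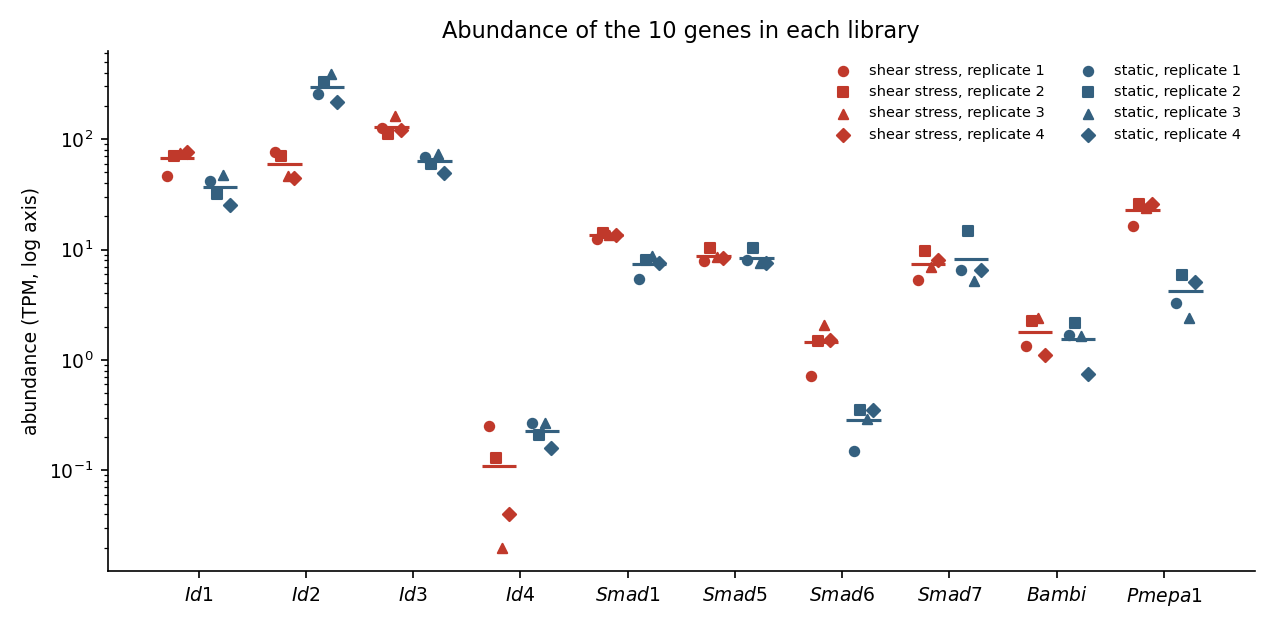
Abundance of each gene in TPM on a log axis, with 1 marker per library (shear stress left of static) and a line at the group mean. Id2 lies between 44.2 and 76.0 TPM in shear stress libraries and between 217 and 386 in static libraries, whereas Smad5, Smad7 and Bambi overlap between the groups.

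Among the ID genes, Id2 (chromosome 12, 25093799 to 25096092) was the 1 member that was called lower. It stood at 76.0, 69.8, 46.7 and 44.2 TPM in shear stress libraries 1 to 4, and at 256, 332, 386 and 217 TPM in static libraries 1 to 4. Every shear stress library was below every static library. On the CPM scale Id2 averaged 41.0 ± 11.7 under shear stress and 241 ± 61.0 in static culture (SD, n = 4 each), a log2 fold change of -2.55 ± 0.24 (SE, edgeR adjusted p = 9.92e-05). By size of change it ranked 269 of the 11747 tested genes. ID2 is a partner of E proteins that in many tissues holds back differentiation.

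Id3 (chromosome 4, 136143822 to 136145392) went the other way. Its levels were 126, 110, 161 and 121 TPM in shear stress libraries and 69.3, 59.9, 73.3 and 49.6 TPM in static libraries. No static library reached the lowest shear stress library. In CPM it averaged 61.1 ± 10.8 under shear stress and 34.7 ± 6.82 in static culture (SD, n = 4 each), with a log2 fold change of 0.82 ± 0.17 (edgeR adjusted p = 0.00365).

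Id1 (chromosome 2, 152736251 to 152737410), the ID gene most used as a readout of BMP signalling, had 46.0, 70.9, 74.3 and 76.0 TPM in shear stress libraries and 42.0, 31.6, 47.2 and 25.5 TPM in static libraries. The groups overlapped, since shear stress library 1 lay below static library 3. Its log2 fold change of 0.59 ± 0.23 was not called (edgeR adjusted p = 0.055), and with the replicate number as a block it was (0.61 ± 0.22, adjusted p = 0.0383). The adjusted p was 0.0263 once shear stress replicate 1 was left out and 0.0248 once static replicate 3 was, and over the removal of each library in turn it ran from 0.0248 to 0.136. Library totals (adjusted p = 0.00906), upper quartile factors (0.0219) and DESeq2 (0.043) also called it. Between same-numbered libraries, in normalised CPM, Id1 was higher under shear stress in 3 of 4 and lower by a log2 ratio of -0.11 in number 1. In TPM it was higher in number 1 too, at 46.0 against 42.0, so the sign of that pair depends on the scaling.

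Id4 (chromosome 13, 48261116 to 48266028), another family member, was close to the limit of detection. Its estimated counts were 12, 6, 1 and 2 in shear stress libraries and 14, 10, 11 and 8 in static libraries, too few to pass the filter. Fitted without the filter its log2 fold change was -1.21 ± 0.61 (edgeR adjusted p = 0.145). Id4 also shares 82 and 171 exon bases with 2 RNAs annotated on the opposite strand, and the labels do not state whether counting used the strand.

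Because the ID genes changed in opposite directions, the make-up of the family's transcripts differed more than its sum. The summed TPM of Id1 to Id4 was 248, 251, 282 and 241 in shear stress libraries and 367, 424, 506 and 292 in static libraries. Id2 made up between 16.5% and 30.6% of that sum under shear stress, against between 69.6% and 78.4% in static libraries. The share of Id3 was between 43.9% and 57.1% under shear stress, against between 14.1% and 18.9%, and that of Id1 was between 18.5% and 31.5%, against between 7.46% and 11.4%. These ranges did not overlap, and the sum had no overlap either. They are values of genes chosen together and carry no test.

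**Figure D3:**
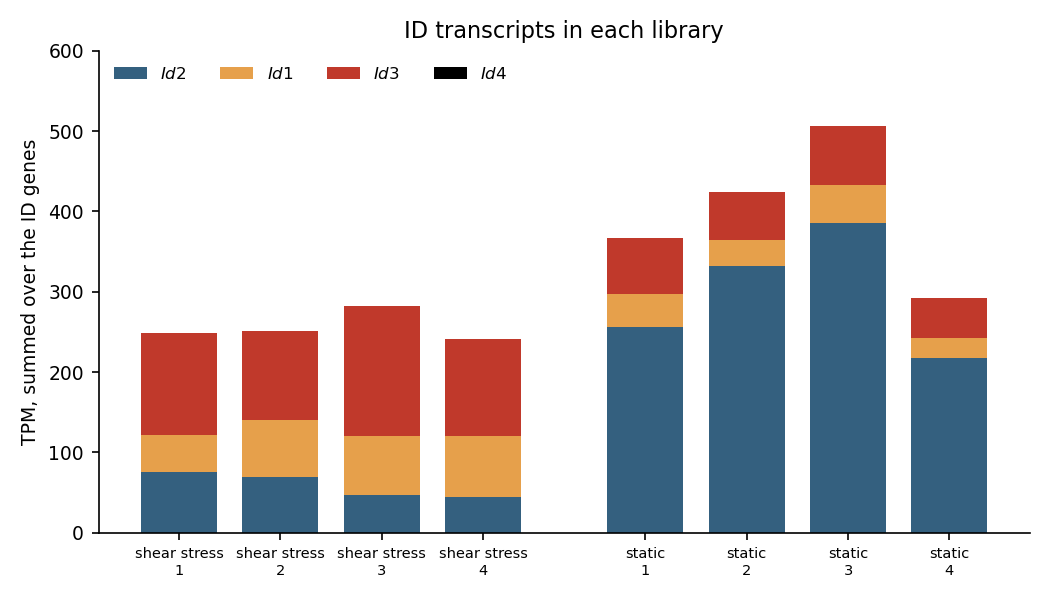
Stacked TPM of Id1, Id2, Id3 and Id4 in each library, shear stress left of static. Id2 (bottom) takes at most 30.6% of the bar in shear stress libraries and at least 69.6% in static libraries, and Id4 is too small to be seen.

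A ratio of genes within a library does not depend on the scaling between libraries. Id1 transcripts numbered 0.606, 1.02, 1.59 and 1.72 per Id2 transcript in shear stress libraries, and 0.165, 0.0954, 0.123 and 0.118 in static libraries. The log2 ratio differed by 3.22 between shear stress and static libraries, and that of Id3 to Id2 by 3.38. Of 4 such ratios compared, all had no overlap and reached p = 0.0286 in a two-sided exact permutation test over the unpaired libraries. That is the smallest p it allows, and adjustment over 4 equal p-values cannot change it. For Id3 to Id2 the outcome was fixed by the opposite, non-overlapping shifts of the single genes, and Id1 to Id2 rests on the same Id2 values. Sign permutation of the 4 same-numbered differences cannot go below p = 0.125, and all 4 ratios gave that value.

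The signal transducers SMAD1 and SMAD5 are near-equivalent carriers of the BMP signal, and only one of their genes was called. Smad1 (chromosome 8, 79338395 to 79399428) had 12.5, 14.1, 13.6 and 13.6 TPM in shear stress libraries and 5.39, 8.05, 8.69 and 7.49 TPM in static libraries. The shear stress values lay close together and above all static values. The rise in CPM, to 25.6 ± 0.876 under shear stress against 16.5 ± 3.03 in static culture (SD, n = 4 each), was 1.55-fold (log2 0.63 ± 0.14, edgeR adjusted p = 0.00472). All 4 same-numbered pairs of libraries had Smad1 higher under shear stress.

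Smad5 (chromosome 13, 56703010 to 56742378) had 7.86, 10.4, 8.63 and 8.31 TPM in shear stress libraries, against 7.97, 10.4, 7.48 and 7.48 TPM in static libraries. These values overlapped throughout, and replicate 2 was the highest of both groups. Its log2 fold change was -0.11 ± 0.11 (edgeR adjusted p = 0.446) and turned positive with upper quartile factors (0.03), library totals (0.11) and log2(FPKM + 0.1) (0.08), none of them called. Smad1 made up between 57.6% and 62.1% of the summed Smad1 and Smad5 TPM under shear stress, against between 40.3% and 53.7% in static libraries. The log2 ratio of Smad1 to Smad5 was higher by 0.79 under shear stress (exact permutation p = 0.0286, n = 4 each).

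The inhibitory SMADs also parted. Smad6 (chromosome 9, 63953076 to 64022085), whose product blocks mainly BMP receptors and SMAD1, had 0.72, 1.47, 2.09 and 1.51 TPM in shear stress libraries and 0.15, 0.35, 0.29 and 0.35 TPM in static libraries. The lowest shear stress value, in replicate 1, was above the highest static value. Smad6 rose 4.51-fold (log2 2.17 ± 0.38, edgeR adjusted p = 0.00142). It stayed a scarce transcript, with 25, 48, 65 and 52 estimated counts under shear stress and 5, 12, 8 and 12 in static libraries.

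Smad7 (chromosome 18, 75367365 to 75395935), which blocks TGF-β as well as BMP receptors, had 5.25, 9.64, 6.91 and 8.08 TPM in shear stress libraries and 6.5, 14.7, 5.16 and 6.59 TPM in static libraries. Static library 2 was the highest of all 8, and the other static libraries, at 5.16 to 6.59 TPM, overlapped the shear stress group. The log2 fold change was -0.32 ± 0.28 (edgeR adjusted p = 0.386) and 0.05 without static replicate 2 (adjusted p = 0.852). Smad6 accounted for between 12.1% and 23.2% of the summed Smad6 and Smad7 TPM under shear stress, against between 2.26% and 5.32% in static libraries. That sum overlapped, at between 5.97 and 11.1 TPM under shear stress and between 5.45 and 15 TPM in static libraries. The log2 ratio of Smad6 to Smad7 was 2.01 higher under shear stress (exact permutation p = 0.0286, n = 4 each). Its size depends on the pseudocount, since the difference was 0.95 with 1 TPM in place of 0.1 TPM and 2.35 on read counts plus 0.5.

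Of the membrane inhibitors, Pmepa1 (chromosome 2, 173224458 to 173276731) was called higher. PMEPA1 holds SMAD2 and SMAD3 away from the TGF-β receptor. It stood at 16.3, 26.1, 23.7 and 26.1 TPM in shear stress libraries, against 3.26, 5.93, 2.42 and 5.08 TPM in static libraries. The groups were far apart, shear stress library 1 again being the lowest of its group. In CPM it averaged 68.0 ± 12.1 under shear stress and 14.3 ± 4.90 in static culture (SD, n = 4 each; log2 fold change 2.24 ± 0.25, edgeR adjusted p = 0.000187).

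Bambi (chromosome 18, 3507011 to 3516404), a pseudoreceptor without a kinase, had 1.33, 2.26, 2.41 and 1.12 TPM in shear stress libraries and 1.69, 2.18, 1.64 and 0.74 TPM in static libraries. The groups overlapped almost completely. Its log2 fold change of -0.04 ± 0.35 was not called (edgeR adjusted p = 0.941), and at between 25 and 50 counts a library under shear stress and between 18 and 49 in static libraries a small change was not detectable. The sign was positive with upper quartile factors (0.10), library totals (0.19) and log2(FPKM + 0.1) (0.18).

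Compared between libraries of the same number, Id3, Smad1, Smad6 and Pmepa1 were higher under shear stress in 4 of 4 and Id2 was lower in 4 of 4. Their log2 CPM ratios ran from -3.35 to -1.94 for Id2, from 0.68 to 1.09 for Id3, from 0.35 to 1.01 for Smad1, from 1.84 to 2.63 for Smad6 and from 1.93 to 3.0 for Pmepa1. In normalised CPM Smad5 was lower in 4 of 4 but by no more than 0.22, and Smad7 and Bambi were higher in 2 and lower in 2. In TPM, by contrast, Smad5 and Bambi were lower in number 1 alone, and Smad7 split as before. Number 3 had the widest ratio for Id2, Smad6 and Pmepa1 and the narrowest for Smad1.

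**Figure D4:**
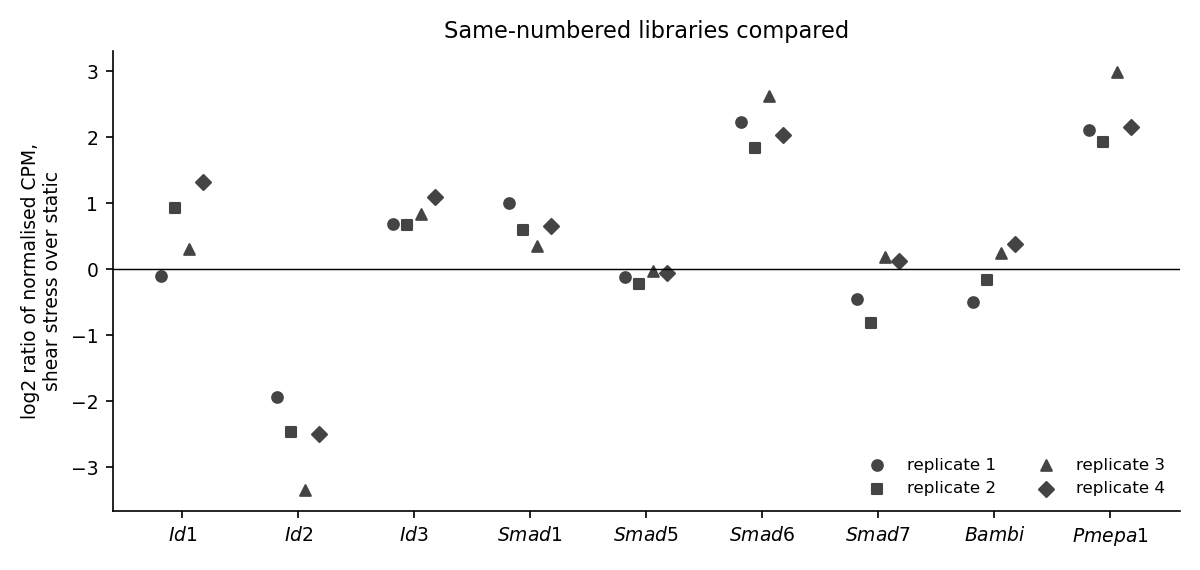
Log2 ratio of normalised CPM, shear stress over static, between libraries of the same replicate number for the 9 tested genes. All 4 ratios are above 0 for Id3, Smad1, Smad6 and Pmepa1 and below 0 for Id2 and Smad5, and Id1, Smad7 and Bambi lie on both sides.

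The rest of the BMP and TGF-β pathway was read from 9 lists of 102 genes, of which 95 were listed and 70 tested. Of these 70, 20 were higher and 15 lower under shear stress, which is 50.0% called beside 48.6% of all tested genes, with a median log2 fold change of 0.04 beside -0.01. By size of change Thbs1 (log2 6.01) and Hamp (5.52), both from lists of SMAD targets, came first among these 70. The lists were chosen with earlier results of these data known, so that order is a description only. Counts under the replicate block are to be read beside the 61.1% of all tested genes that the block called. In the text on these lists, values are mean normalised CPM ± SD (n = 4 each) and p-values are adjusted p of the edgeR test.

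**Figure D5:**
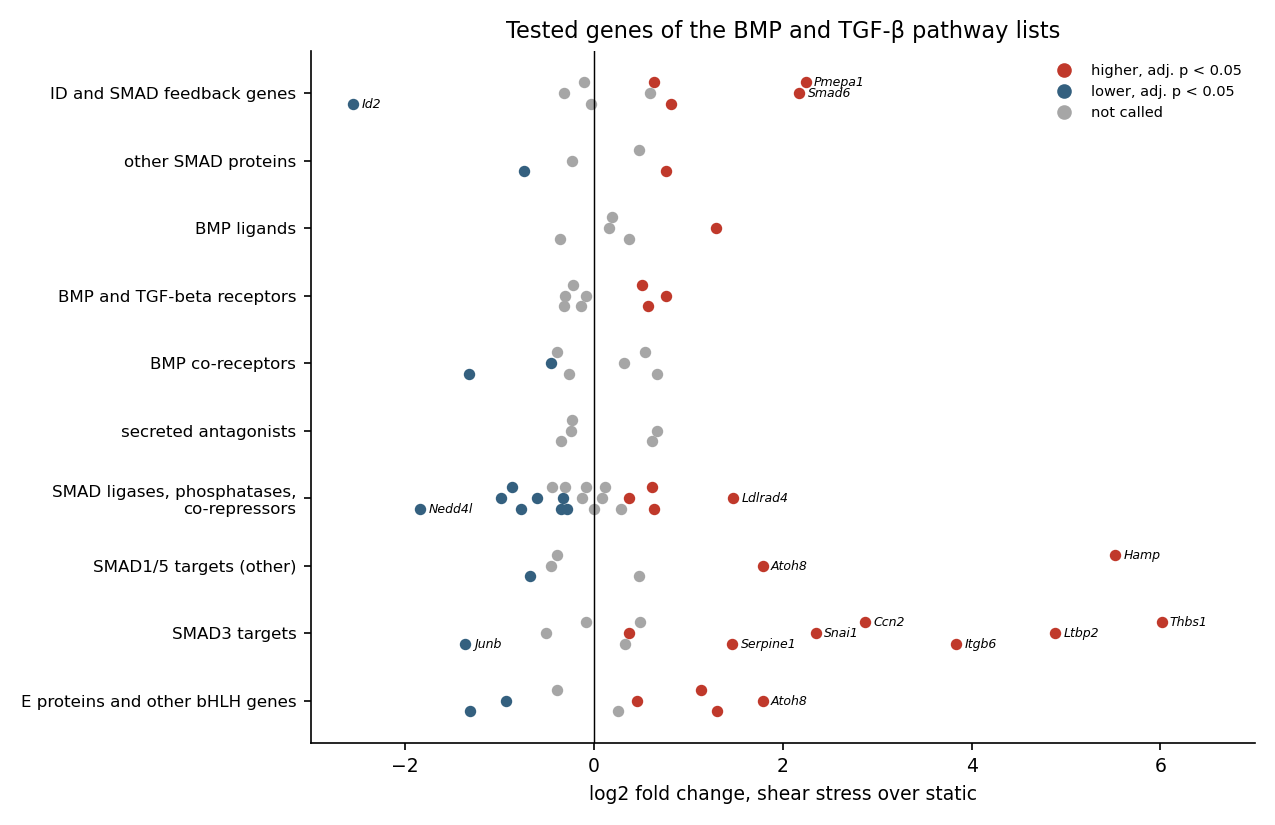
Log2 fold change of shear stress over static for each tested gene, by list, with colour for adjusted p under 0.05 and names beside the farthest points. All tested receptor genes lie between -1 and 1, whereas Hamp at 5.52 and Thbs1 at 6.01 stand at the right edge.

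Among BMP ligands, 1 of 5 tested genes rose. Bmp4 was at 1.32 ± 0.538 CPM under shear stress and 0.531 ± 0.273 CPM in static culture (adjusted p = 0.042), and its call was lost on removal of any one of shear stress replicates 1, 3 and 4 or static replicates 1, 2 and 3 (0.0779 to 0.102). Bmp6 was not called, at 3.25 ± 0.966 CPM under shear stress and 2.90 ± 1.84 CPM in static culture (log2 0.16 ± 0.44, adjusted p = 0.788). Bmp10 and Gdf2, which encode circulating ligands, had at most 2 and 7 counts in any library. Of 8 tested receptors, 3 rose and none fell, with 1 fall under the replicate block. Without the filter or with DESeq2, 11 were tested, of which 3 rose and 1 fell. Bmpr1b, which did not pass the filter, was at 0 CPM in every shear stress library and between 0.531 and 1.45 CPM in static libraries. The 3 genes that rose encode type I receptors. Acvr1, which takes part in the BMP6 response of hepatocytes, was at 52.8 ± 9.50 CPM under shear stress and 31.1 ± 7.29 CPM in static culture (adjusted p = 0.0077). Acvr1b, an activin receptor gene, was at 28.1 ± 0.763 CPM under shear stress and 18.8 ± 2.92 CPM in static culture (adjusted p = 0.00415). Tgfbr1, a TGF-β receptor gene, was at 74.6 ± 16.1 CPM under shear stress and 52.5 ± 4.53 CPM in static culture (adjusted p = 0.022). The Tgfbr1 call was lost without shear stress replicate 3 or static replicate 1 or 3 (0.0504 to 0.0592), which left 2 rises, and without shear stress replicate 3 another receptor gene fell.

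Of 7 tested co-receptor genes, 2 were lower and none higher, with 3 lower under the block. Neo1, which encodes the hemojuvelin-binding receptor neogenin, fell to 42.1 ± 5.87 CPM under shear stress, against 105 ± 18.7 CPM in static culture (log2 -1.32 ± 0.15, adjusted p = 0.000193). Tfr2, an iron sensor of hepatocytes, was at 154 ± 17.2 CPM under shear stress and 210 ± 35 CPM in static culture (adjusted p = 0.0231). Its call was lost without shear stress replicate 2 or 4 or static replicate 1 or 4 (0.0544 to 0.063) and with library totals or upper quartile factors, which leaves 1 fall. None of 5 tested secreted antagonists was called by edgeR, and 0 had an unadjusted p under 0.05, but DESeq2 gave 1 fall among 10, the block or library totals gave 1 rise, and removals of single libraries, with 6 or 7 genes tested, gave up to 2 falls or 1 rise. The most abundant antagonist, Fst, an activin trap, was at 85.7 ± 23.7 CPM under shear stress and 109 ± 13.5 CPM in static culture (adjusted p = 0.135, and 0.0124 without shear stress replicate 3).

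Of 4 other SMAD genes, 1 rose, 1 fell and 2 were not called, Smad3 (log2 -0.23, adjusted p = 0.215) and Smad9 (log2 0.48, adjusted p = 0.362). Smad2, a carrier of the TGF-β signal, rose to 58.7 ± 9.27 CPM under shear stress, against 34.6 ± 6.26 CPM in static culture (adjusted p = 0.0038). Smad4, the partner shared by all receptor SMADs, fell to 58.6 ± 3.93 CPM, against 98.1 ± 10.7 CPM in static culture (adjusted p = 0.000432). For Smad2 and Smad4 no library crossed into the range of the other group. Without shear stress replicate 1, 2 of these 4 genes fell.

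Among 20 ubiquitin ligases, phosphatases and co-repressors of SMADs, 4 rose and 8 fell, and with library totals 6 rose and 4 fell. Ldlrad4, a close relative of Pmepa1 that acts in the same way on SMAD2 and SMAD3, rose together with it. It stood at 18.1, 21.0, 17.2 and 17.4 CPM in shear stress libraries and at 6.22, 6.98, 6.67 and 6.66 CPM in static libraries, so that spread within a group was small beside the gap (log2 1.47 ± 0.12, adjusted p = 5.52e-05). Nedd4l, a ligase that removes activated SMAD2 and SMAD3, fell to 31.0, 25.4, 34.9 and 29.0 CPM in shear stress libraries, against 104, 103, 118 and 107 CPM in static libraries (log2 -1.84 ± 0.11, adjusted p = 2.76e-05). The phosphatase genes Ctdsp1 and Ctdsp2, whose products strip phosphates from SMADs, were lower by log2 0.60 and 0.99. The 8 falls became 4 when shear stress replicate 1 was left out and 5 for shear stress replicate 4 or static replicate 3.

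Among other targets of SMAD1 and SMAD5, Hamp, which encodes hepcidin, was at 538, 323, 510 and 299 CPM in shear stress libraries. In static libraries it was at 11.1, 4.83, 13.6 and 6.96 CPM. Every shear stress library was more than an order of magnitude above every static library (log2 5.52 ± 0.38, adjusted p = 4.79e-05). Hamp2, from the same list, did not follow. It varied widely, at 8.48 ± 10.7 CPM under shear stress and 11.8 ± 18.2 CPM in static culture (log2 -0.46 ± 1.22, adjusted p = 0.776). Atoh8, a transcription factor gene that follows hepcidin and iron in mouse liver, was at 3.8 ± 1.58 CPM under shear stress and 1.09 ± 0.288 CPM in static culture (log2 1.79 ± 0.35, adjusted p = 0.0025). Tmprss6, which encodes a protease that cuts hemojuvelin, fell to 143 ± 18.8 CPM, against 229 ± 41.1 CPM in static culture (adjusted p = 0.00482). In all 2 of 6 tested genes of this list rose and 1 fell, and removal of single libraries, with 6 or 7 genes tested, gave 3 falls when shear stress replicate 1 was left out and 2 falls for shear stress replicate 2, 3 or 4 or static replicate 3.

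Of 12 tested targets of SMAD3, 7 rose and 1 fell. By the smallest p these were Junb, an AP-1 gene, which fell (log2 -1.36 ± 0.13), and the matrix gene Thbs1 (6.01 ± 0.61), the epithelial repressor gene Snai1 (2.35 ± 0.35) and the integrin gene Itgb6 (3.84 ± 0.60), which rose, with adjusted p between 9.64e-05 and 0.000858. Of the 12 targets, 6 rose when any one of shear stress replicates 1, 3 and 4 or static replicates 1, 3 and 4 was left out. Without static replicate 3, 2 of the targets fell. Among E proteins, the partners that ID proteins hold off DNA, Tcf3 rose to 31.6 ± 3.79 CPM under shear stress, against 23.0 ± 1.62 CPM in static culture (adjusted p = 0.00891). Tcf4, the other called E protein gene, fell to 7.90 ± 1.15 CPM, against 15.1 ± 1.52 CPM in static culture (adjusted p = 0.00089). Bhlhe40, a helix-loop-helix repressor of the clock, rose to 579 ± 74.8 CPM, against 235 ± 25.4 CPM in static culture (adjusted p = 7.79e-05). Over this list, which also holds Atoh8, 4 of 8 tested genes rose and 2 fell. With removal of single libraries 8 or 9 could be tested, and falls numbered 4 without shear stress replicate 1 (with 5 rises) and 3 without any other shear stress replicate or static replicate 3.

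Because endothelial cells also express Id1, Id3 and Smad6, markers of other cell types were read in the same libraries. Alb, the hepatocyte albumin gene, was at 41827 ± 7151 CPM under shear stress and 62211 ± 8131 CPM in static culture (edgeR adjusted p = 0.0121, and 0.0751 with library totals). The hepatocyte regulator gene Hnf4a was at 179 ± 28.2 CPM under shear stress and 163 ± 42.7 CPM in static culture (adjusted p = 0.59), and 7 of 9 tested hepatocyte markers fell (3 with library totals). The hepatocyte markers summed to between 50643.9 and 65815.8 CPM under shear stress and between 74224.5 and 93103.2 CPM in static libraries, with no overlap. The 10 sinusoidal endothelial markers summed to between 11.6 and 30.3 CPM under shear stress and between 13.6 and 26.2 CPM in static libraries, and Tek, Clec4g and Emcn never passed 14 counts. Of the 7 tested, Pecam1 fell (log2 -2.42) and Egfl7 rose (log2 0.86). Pecam1 was between 1.10 and 3.94 CPM under shear stress and between 5.70 and 14.4 CPM in static libraries. Cdh5, Kdr, Stab2, Lyve1 and Oit3 were not called, with positive log2 fold changes of 0.73, 0.33, 0.43, 0.38 and 1.03. The sum thus mixes the fall of Pecam1 with positive changes of the other tested markers. No endothelial marker rose without shear stress replicate 3 or static replicate 1 or 2. Kupffer cell markers Adgre1, Clec4f, Csf1r, Marco, C1qa, C1qb and Timd4 had at most 5 counts in any library, although Cd14 and Cd68 brought the sum of the 9 listed markers to between 229 and 349 CPM under shear stress and between 289 and 418 CPM in static libraries. The 10 stellate cell markers summed to between 7.33 and 10.4 CPM under shear stress and between 6.12 and 12.5 CPM in static libraries, with Lrat, Des and Acta2 among 7 that had at most 12 counts. Cholangiocyte markers, mostly Spp1, summed to between 239 and 1736 CPM under shear stress and between 147 and 1332 CPM in static libraries. Of the 4 tested, 1 was higher, or 3 under the block, which called 61.1% of all tested genes. Of the lymphocyte markers, the B cell receptor gene Cd79b fell to 0.181 ± 0.143 CPM under shear stress, against 8.02 ± 1.11 CPM in static culture (adjusted p = 5.50e-05). Its partner Cd79a fell to 0.119 ± 0.201 CPM under shear stress, against 1.93 ± 0.174 CPM in static culture (adjusted p = 0.00172). Neither gene's libraries overlapped between the groups. Ptprc had at most 10 counts in any library and was not tested. It was at most 0.0577 CPM in shear stress libraries and between 0.291 and 0.682 CPM in static libraries. Without the filter or with DESeq2, 3 of 5 lymphocyte markers were lower. The part of these cell types in the changes of the ID and SMAD genes was not tested.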

How the data were processed

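RNA of mouse hepatocytes was measured in 4 shear stress and 4 static libraries, grouped and numbered by the sample titles. Per the submitters' processing notes, the tools were RSEM, Bowtie2 and HISAT and the build was GRCm38 (mm10), while versions, annotation and strand setting were not given in the sources used here. Per the file headers the authors deposited read counts, TPM and FPKM for 17276 genes. The deposited read counts are expected counts, since between 9.31% and 10.7% per library were not whole. They were rounded, filtered with filterByExpr to 11747 genes, scaled by TMM and tested in edgeR 4.0.16 (quasi-likelihood, R 4.3.3) without a block, at an adjusted p threshold of 0.05. A standard error was obtained by dividing the fold change (log2) by the root of F. TPM as deposited served for levels and for ratios (pseudocount 0.1), and FPKM as deposited for limma 3.58.1 (mean of at least 0.5, pseudocounts 0.1 and 1). DESeq2 1.42.0, other scalings, no filter, the replicate block and removal of each library were alternatives. After removal of group means, same-numbered libraries correlated at 0.679, 0.642, 0.56 and 0.467 over 8446 genes and differently numbered ones at -0.018 or less. Removal of group means itself pulls the differently numbered values below 0 once the same-numbered value is above it, so their sign adds nothing. For every library the same-numbered one was the closest of the other group. The numbers thus pair the libraries, though no label explains the numbers. The main edgeR fit does not use that pairing, and only the replicate block does. All libraries within a group differed beyond counting noise (chi-square over degrees of freedom at least 45.2). At these depths counting error limits genes of a few counts, and 3 counts are between 0.167 and 0.199 CPM. The procedure was run on simulated data with 200 changed genes. In the real data 5707 genes were called, so that run does not test how scaling acts on such a broad change. The genes and lists were chosen with earlier results of these data known. Named genes are the 10 members, up to 4 called genes of each list by smallest p or its most abundant gene, and Alb and Hnf4a. Genes named beyond these were chosen after their values were seen. Examples are Bmp6, Bmp10, Gdf2, Hamp2 and the cell type markers other than Alb and Hnf4a. Positions and promoters are from RefSeq (GRCm38.p6) and overlaps from GENCODE M21 of the same build, in which only Id4 shared exon bases with a gene on the opposite strand. Smad5 holds small RNAs on its own strand, which are not in the files. The summed level of the lymphocyte markers is not reported here.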

Additional observations from a re-analysis of the deposited data

How the results depend on the processing

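Over the 16 alternatives, Id2, Id3, Smad1, Smad6 and Pmepa1 kept their direction and their call, with log2 fold changes from -2.71 to -2.32 for Id2, 0.71 to 1.04 for Id3, 0.52 to 0.86 for Smad1, 0.76 to 2.40 for Smad6 and 2.06 to 2.48 for Pmepa1. The lowest Smad6 value, 0.76, came from log2(FPKM + 1), whose pseudocount exceeds most Smad6 values and so shrinks the change. Id1, not called at the settings reported (no block, TMM, all libraries), was called in 8 of the 16, of which 7 had no block, and its change was positive in all 16. Scaling moved the median of all tested genes from -0.01 to 0.22 with library totals, 0.13 with upper quartile factors, 0.20 with log2(FPKM + 0.1) and 0.18 with log2(FPKM + 1). The number of genes lower under shear stress was 2783, and 1539 with library totals, 1403 with log2(FPKM + 0.1) and 1407 with log2(FPKM + 1), while 2924, 4157, 3892 and 3906 were higher. Upper quartile factors gave 3652 higher and 1982 lower.

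Changes of sign occurred only for genes that were not called. Smad5 was at 0.027, 0.11, 0.076 and 0.066 with upper quartile factors, library totals, log2(FPKM + 0.1) and log2(FPKM + 1). Bambi was at 0.10, 0.19, 0.18 and 0.10 with these, and between -0.27 and 0.12 when single libraries were left out. When single libraries were left out Smad7 was between -0.48 and 0.046 and Hnf4a between -0.027 and 0.27, and both changed sign without static replicate 2. The cause was not tested. With the replicate block, Id1 gained its call and no other of the 9 tested members changed call. The block called 61.1% of all tested genes, beside 48.6% without it. For the ratios, removal of single libraries left differences of 3.02 to 3.52 for Id1 to Id2, 3.17 to 3.54 for Id3 to Id2, 1.78 to 2.21 for Smad6 to Smad7 and 0.66 to 0.92 for Smad1 to Smad5. The exact p was then 0.0571, the smallest that 4 against 3 libraries allow, and the sign permutation of same-numbered differences (replicate block), with 3.22, 3.38, 2.01 and 0.79, cannot go below 0.125, so neither speaks to stability.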
